A study of Rattus norvegicus with 12 samples.

Results

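The enzymes that activate fatty acids, hydrolyse their CoA esters and oxidise them were examined in epididymal adipocytes of male Fisher 344 rats. The members were the genes whose name on the array begins with the stem of 1 of these enzyme families, namely the acyl-CoA dehydrogenases and oxidases, the long-chain acyl-CoA synthetases (Acsl), the acyl-CoA thioesterases (Acot), the thiolases, the hydratases and hydroxyacyl-CoA dehydrogenases, the electron transfer flavoprotein, the dienoyl-CoA reductases and the carnitine acyltransferases. They came to 48 of 26481 genes on the array and to 54 of 30367 probes, and 6 of them had several probes. The rule reads gene names and no measured values.

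The CUS group comprised 6 rats exposed to chronic unpredictable stress (CUS) for 35 days, with 2 stressors per day in a random sequence, and the control group comprised 6 untreated rats that were handled for weighing. The stressors included 11 nights without food and water, the last of them on day 32, so food withdrawal was part of the treatment. The age of the rats is not given in the labels. RNA was collected when the 35 days ended, labelled with 1 dye (Cy3) and read on Agilent expression arrays, 1 for each rat. P-values measure the spread between these samples, since nothing in the labels says how many cages or collection days they came from. The source field names adipocytes and the extraction text names preadipocytes.

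Fatty acids enter these pathways as CoA thioesters, which the synthetases make and the thioesterases split again. Long acyl chains cross into mitochondria as carnitine esters, and there each turn of beta-oxidation removes an acetyl unit by dehydrogenation, hydration, a second dehydrogenation and thiolysis. Peroxisomes run a parallel spiral, begun by an oxidase instead of a dehydrogenase, on very long, branched and dicarboxylic chains. White adipocytes mainly store and release fatty acids, and their own capacity for oxidation is low beside that of liver, muscle or brown fat.

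Values are log2 intensities relative to the 75th percentile of all probes of the same array, each gene is read from its brightest probe, and groups were compared with limma and Benjamini-Hochberg adjustment over all probes tested. That percentile was an intensity of 541 to 627 on the CUS arrays and of 230 to 400 on the control arrays, and 64.7% to 67.0% of probes on the CUS arrays and 60.4% to 67.3% on the control arrays were well above background. Each group was hybridised on its own slide, so a slide effect and the effect of stress cannot be told apart. Control replicate 3 stood apart, and several results that rest on it are given with and without it. All 10 adipocyte markers, Adipoq and Plin1 among them, were well above background and summed, on the linear scale, to 1584 to 1891 on the CUS arrays and to 1663 to 2898 on the control arrays, with the highest sum on control replicate 3. The 8 endothelial markers summed to 19.4 to 38.7 on the CUS arrays and to 18.7 to 82.4 on the control arrays, with the lowest sum on control replicate 3. In such bulk RNA, fewer cells of a type and less RNA per cell cannot be told apart.

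Of the 48 enzymes, 45 passed the filter, which asked for a probe well above background on 6 or more of the 12 arrays, and 43 were well above background on all 12. Acot12, a cytosolic acetyl-CoA thioesterase, and Acox2, the peroxisomal oxidase for branched chains, were well above background on no array. Acsl6, a synthetase best known from brain, was above it on 2 CUS arrays and on no control array.

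Most of the enzymes tested were higher in CUS adipocytes. Of 45, 27 rose (adjusted p under 0.05) and 2 fell, while 24.2% of all 17393 genes tested rose and 25.9% fell. The median difference between CUS and control was 0.38 on the log2 scale over the 45 enzymes and -0.03 over all genes, and 40 of the 45 differences were above 0. With a fold of 2 as a further condition, 4 rose (Decr2, Ehhadh, Etfa and Hadhb) against 3.19% of all genes, and 1 fell (Acoxl) against 8.78%. The count that rose by that fold was 1 (Etfa) under normexp background correction and 32 under scaling on the spike-in RNAs, against 1.04% and 34.7% of all genes. For 6 enzymes (Acot2, Acot5, Acaa2, Etfa, Ehhadh and Decr2) every CUS array was above every control array, which held for 10.3% of all genes tested. No enzyme that was tested showed the opposite, against 11.7% of all genes tested. When arrays were scaled on the spike-in RNAs, 41 enzymes rose and none fell by limma (1, Acoxl, at an unadjusted p under 0.05), against 63.9% and 2.51% of all genes. Under that scaling the median difference was 1.21 for the enzymes and 0.80 for all genes.

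Where none of a class or list fell by limma, none did so at an unadjusted p under 0.05 either, except Acsl5, Acot4 and the macrophage gene Cd68. By the methods' t-test with the same adjustment, Acsl5 was the only one of these to pass as lower.

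**Figure D1:**
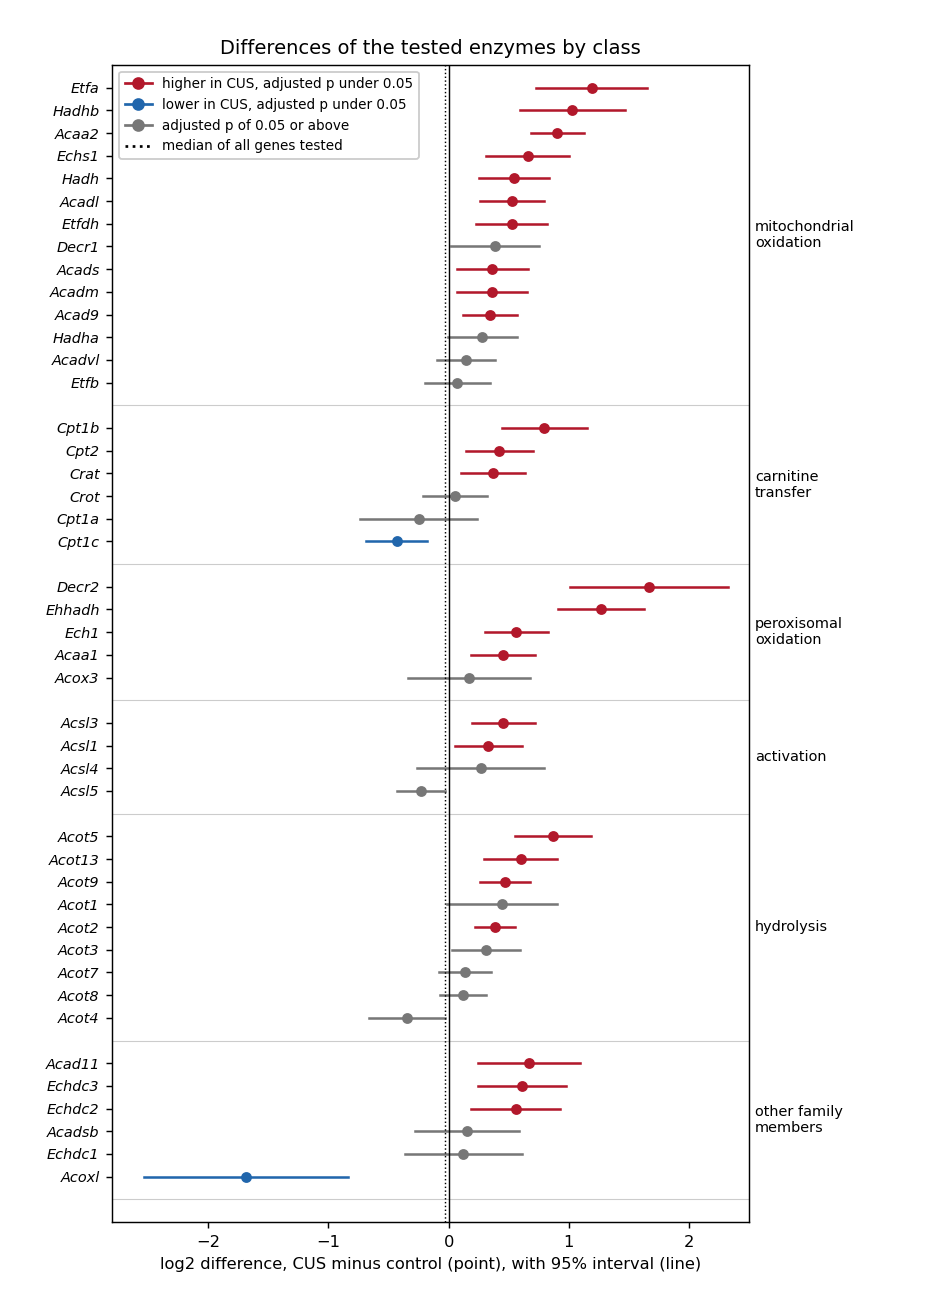
Log2 difference between CUS and control for 44 of the 45 enzymes tested, grouped by class, with points for the estimates and lines for the 95% intervals. Of those drawn, red marks the 26 that rose, blue the 2 that fell and grey the 16 that did not pass the test, and the dotted line is the median of all genes tested, -0.03.

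All 14 enzymes of mitochondrial oxidation and its electron acceptors were tested, of which 10 rose and none fell, with a median difference of 0.45. Etfa, the alpha subunit of the electron transfer flavoprotein that takes electrons from the dehydrogenases, measured 1.77, 2.07 and 2.13 (lowest, median and highest) on CUS arrays and -0.03, 0.77 and 1.63 on control arrays. The groups did not overlap. Etfa rose by 1.19 ± 0.21 (SE, n = 6 per group, limma, adjusted p = 0.000783), a fold of 2.28.

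Hadhb, the thiolase subunit of the mitochondrial trifunctional protein, measured 1.14, 1.52 and 1.61 on CUS arrays and -0.33, 0.44 and 1.23 on control arrays. Only control replicate 3 reached into the CUS range. The difference was 1.03 ± 0.20 (limma, adjusted p = 0.00136). Acaa2, the separate mitochondrial thiolase of the last step, measured 3.62, 3.84 and 3.91 on CUS arrays and 2.68, 2.90 and 3.22 on control arrays. It rose by 0.90 ± 0.10 without overlap (limma, adjusted p = 3.46e-05), the smallest adjusted p among the 45 enzymes.

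Enzymes of the middle steps of the spiral also rose. Echs1, the short-chain enoyl-CoA hydratase, measured 5.35, 5.80 and 5.93 on CUS arrays and 4.81, 4.97 and 5.75 on control arrays, a difference of 0.66 ± 0.16 (limma, adjusted p = 0.00481). Hadh, which dehydrogenates short and medium hydroxyacyl chains, measured 5.82, 6.17 and 6.29 on CUS arrays and 5.32, 5.54 and 6.12 on control arrays, a difference of 0.55 ± 0.13 (adjusted p = 0.00521). For both, 5 control arrays lay below every CUS array and control replicate 3 lay among the CUS arrays.

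Of the 5 first-step dehydrogenases, 4 rose. Acadl, the long-chain enzyme, measured 5.09, 5.24 and 5.38 on CUS arrays and 4.52, 4.61 and 5.26 on control arrays, and rose by 0.53 ± 0.12 (limma, adjusted p = 0.00378). Acadm, the medium-chain enzyme, measured 3.62, 3.88 and 4.00 on CUS arrays and 3.31, 3.39 and 4.09 on control arrays. Its difference of 0.36 ± 0.14 only just passed (adjusted p = 0.0416), and control replicate 3 was the highest of all 12 arrays. Acadvl, the very-long-chain enzyme, measured 2.19, 2.43 and 2.65 on CUS arrays and 2.01, 2.27 and 2.64 on control arrays, which overlapped widely, and its difference of 0.15 had a 95% interval of -0.10 to 0.39. Acads, for short chains, rose by 0.37 ± 0.14 (adjusted p = 0.0411), and Acad9, which also serves respiratory complex I assembly, by 0.35 ± 0.10 (adjusted p = 0.0149). The calls of Acadm and of Acads were each lost under 13 of 25 alternatives. Differences between these dehydrogenases were not tested.

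Etfdh, which passes the electrons on to ubiquinone, measured 0.91, 1.22 and 1.45 on CUS arrays and 0.42, 0.59 and 1.20 on control arrays, and rose by 0.52 ± 0.14 (limma, adjusted p = 0.00772). Decr1, the reductase for unsaturated chains, differed by 0.38 ± 0.17 and did not pass (adjusted p = 0.0748). Without control replicate 3, the Decr1 difference was 0.52 (limma, adjusted p = 0.00358).

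In both heteromeric complexes of this pathway, the probes read for the subunits changed unequally. Etfb, the beta subunit that pairs with Etfa, measured 5.63, 5.80 and 5.90 on CUS arrays and 5.33, 5.64 and 6.16 on control arrays, a difference of 0.07 with a 95% interval of -0.20 to 0.34. The difference of Etfa exceeded that of Etfb by 1.12 (exact permutation test over arrays, two-sided, p = 0.0022, the smallest it can give), and by 1.19 without control replicate 3 (exact p = 0.0043). The ratio of Etfa to Etfb was higher on each CUS array than on any control array. Hadha, the hydratase and dehydrogenase subunit of the trifunctional protein, measured 2.15, 2.45 and 2.74 on CUS arrays and 1.91, 2.13 and 2.53 on control arrays, a difference of 0.28 ± 0.13 that did not pass (limma, adjusted p = 0.0931). Hadhb exceeded Hadha by 0.75 (exact permutation test, two-sided, p = 0.0065), and the second Hadha probe by 0.30 (exact p = 0.0043). These were among 6 comparisons, over 5 pairs of partner enzymes, chosen after their values were seen, and no p-value here accounts for that choice. Benjamini-Hochberg adjustment over the 6 gave 0.0129 for Etfa with Etfb, 0.013 for Hadhb with Hadha and 0.0129 for Hadhb with the second Hadha probe.

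The size of the Hadha difference, and whether it passed, depended on the probe. Unequal probes and unequal subunits therefore cannot be told apart here. The second, dimmer Hadha probe measured 1.75, 1.94 and 2.05 on CUS arrays and 0.77, 1.15 and 1.86 on control arrays and rose by 0.73 ± 0.16 (limma, adjusted p = 0.00236). The unequal changes rest on 1 or 2 short stretches of each transcript. The sequences of the Hadha, Hadhb and Etfa probes are shown, and that of Etfb is not. All those shown are 60 bases and, as printed, hold 1 reading frame without a stop codon. The array design places them on build rn4 at 6_random:452613-452672 (plus strand) for Hadha probe 1, at 6_random:467174-467737 (plus strand) for Hadha probe 2, at chr6:26144500-26144559 (minus strand) for Hadhb and at chr8:59049497-59050934 (minus strand) for Etfa. Hadha probe 2 and the Etfa probe span 564 and 1438 bases of the genome and so are split by an intron, and the files do not say which exon each lies in.
Hadha probe 1: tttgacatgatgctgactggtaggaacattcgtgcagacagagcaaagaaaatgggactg
Hadha probe 2: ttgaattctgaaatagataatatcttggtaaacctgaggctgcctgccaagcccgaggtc
Hadhb probe: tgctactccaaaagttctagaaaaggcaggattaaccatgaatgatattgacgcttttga
Etfa probe: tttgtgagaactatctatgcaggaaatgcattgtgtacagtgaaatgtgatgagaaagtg

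Hadha and Hadhb are also neighbours that are transcribed away from each other. In the RefSeq annotation of build GRCr8 their start sites lie 301 bases apart on chromosome 6, and their promoter windows were the only overlapping pair among the enzymes. The 250 bases before the Hadha start, which lie between both start sites, are chr6:31907551-31907800 (plus strand, GRCr8), with the 9 CG dinucleotides in capitals and a GC content of 53.6%, against a median of 51.2% for all such windows.
Hadha and Hadhb: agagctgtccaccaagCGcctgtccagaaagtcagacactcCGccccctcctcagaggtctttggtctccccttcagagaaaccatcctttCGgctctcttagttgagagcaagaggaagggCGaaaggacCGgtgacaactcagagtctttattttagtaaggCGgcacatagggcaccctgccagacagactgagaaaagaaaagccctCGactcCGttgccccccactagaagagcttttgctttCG

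**Figure D2:**
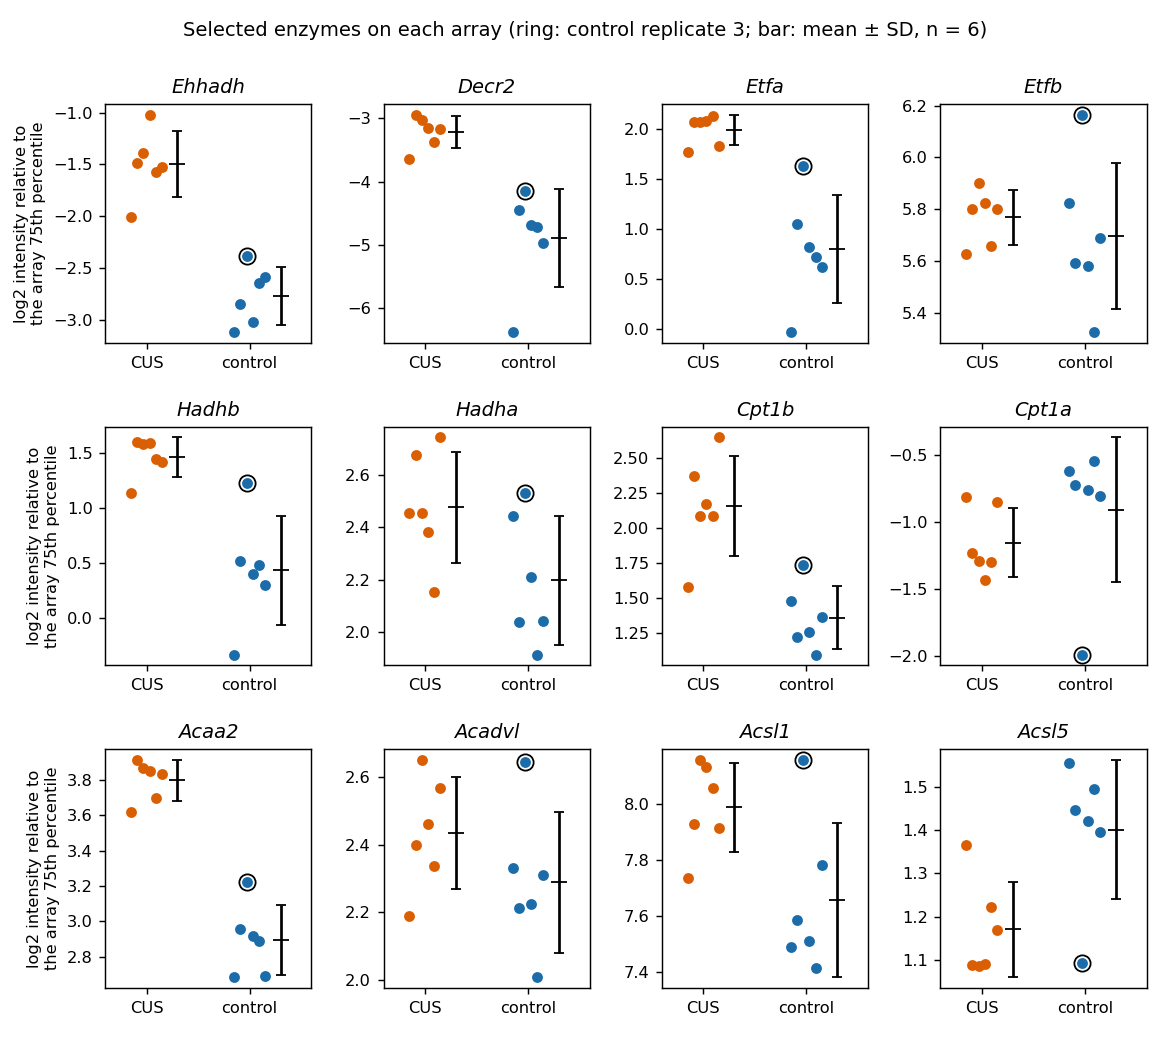
Log2 intensity relative to the array 75th percentile on each of 6 CUS and 6 control arrays for 12 enzymes, each panel with its own axis, with the mean ± SD beside the points and control replicate 3 ringed. Ehhadh, Decr2, Etfa and Acaa2 show no overlap, Etfb and Acadvl overlap widely, and control replicate 3 is the highest control array except for Cpt1a and Acsl5, where it is the lowest.

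Of the 6 carnitine acyltransferases, 3 rose and 1 fell. Cpt1b, the muscle form of the outer-membrane enzyme that commits acyl chains to mitochondria, measured 1.58, 2.13 and 2.64 on CUS arrays and 1.10, 1.31 and 1.73 on control arrays. The groups met only where CUS replicate 1 lay below control replicate 3. Cpt1b rose by 0.80 ± 0.16 (limma, adjusted p = 0.00182), a fold of 1.74, and its second probe was well above background on no array. Cpt1a, the liver form, measured -1.44, -1.26 and -0.81 on CUS arrays and -1.99, -0.74 and -0.54 on control arrays. Its difference of -0.25 ± 0.23 did not pass (adjusted p = 0.375), but the lowest control value came from replicate 3, and without that array the difference was -0.46 (limma, adjusted p = 0.00628). Cpt1b exceeded Cpt1a by 1.05 (exact permutation test, two-sided, p = 0.026; 0.036 adjusted over the 6 comparisons), and by 1.34 without control replicate 3 (exact p = 0.0043).

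Cpt2, the inner-membrane enzyme that returns the chains to CoA, measured 1.25, 1.56 and 1.72 on CUS arrays and 0.74, 1.05 and 1.53 on control arrays, and rose by 0.42 ± 0.13 (limma, adjusted p = 0.0163). Crat, which acts on acetyl groups, rose by 0.37 ± 0.12, and Crot, the peroxisomal octanoyl enzyme, differed by 0.05 ± 0.12. Cpt1c, a form best known from neurons and of low catalytic activity, fell by 0.43 ± 0.12 (adjusted p = 0.00899), but the call was lost under quantile normalization and in the authors' table (both -0.30, adjusted p = 0.0693 and 0.0705). Under scaling on the spike-in RNAs Cpt1c was 0.40 higher, without passing (adjusted p = 0.164).

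Of the 7 peroxisomal oxidation enzymes, 6 were tested, of which 5 rose and none fell, with a median difference of 0.51. Ehhadh, the bifunctional hydratase and dehydrogenase of the peroxisomal spiral, measured -2.01, -1.50 and -1.02 on CUS arrays and -3.12, -2.75 and -2.38 on control arrays. Every CUS array was above every control array. Ehhadh rose by 1.27 ± 0.17 (limma, adjusted p = 9.75e-05), a fold of 2.41, and passed under every alternative setting tried, with differences of 0.61 to 2.10.

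Decr2, the peroxisomal dienoyl-CoA reductase, had the largest rise of the 45 enzymes. It measured -3.64, -3.16 and -2.94 on CUS arrays and -6.37, -4.70 and -4.14 on control arrays, and was well above background on only 4 control arrays. The groups did not overlap, and the difference was 1.67 ± 0.30 (limma, adjusted p = 0.000858). Under normexp background correction it was 0.07 and did not pass (adjusted p = 0.585), so the size for this dim probe depended on the background treatment.

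Ech1, an isomerase of dienoyl chains found in peroxisomes and mitochondria, measured 4.50, 4.74 and 4.80 on CUS arrays and 3.81, 4.09 and 4.60 on control arrays, and rose by 0.57 ± 0.12 (limma, adjusted p = 0.00249). Acaa1, the peroxisomal thiolase, rose by 0.45 ± 0.12 at its brighter probe (adjusted p = 0.00943) but differed by 0.04 ± 0.15 at the other (adjusted p = 0.848). Acox3, an oxidase of branched chains, differed by 0.17 ± 0.24 and did not pass.

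The mitochondrial and peroxisomal sets had close medians. With Cpt1a, Cpt1b and Cpt2 counted as mitochondrial and Crot as peroxisomal, 12 of 17 mitochondrial enzymes rose with a median difference of 0.42, and 5 of 7 peroxisomal enzymes tested rose with a median of 0.45. The mitochondrial minus the peroxisomal median was -0.03, and it turned to 0.13 when the probes of a gene were averaged and to 0.16 when the dimmest probe was taken. Relative to the control mean of each gene, the mitochondrial median was 0.22 to 0.62 on the CUS arrays and -0.19 to 0.47 on the control arrays. The peroxisomal median was 0.24 to 0.61 on the CUS arrays and -0.19 to 0.49 on the control arrays. In both sets control replicate 3 was the highest control array and CUS replicate 1 the lowest CUS array, and the other control arrays reached at most -0.01 in the mitochondrial set and 0.06 in the peroxisomal set.

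**Figure D3:**
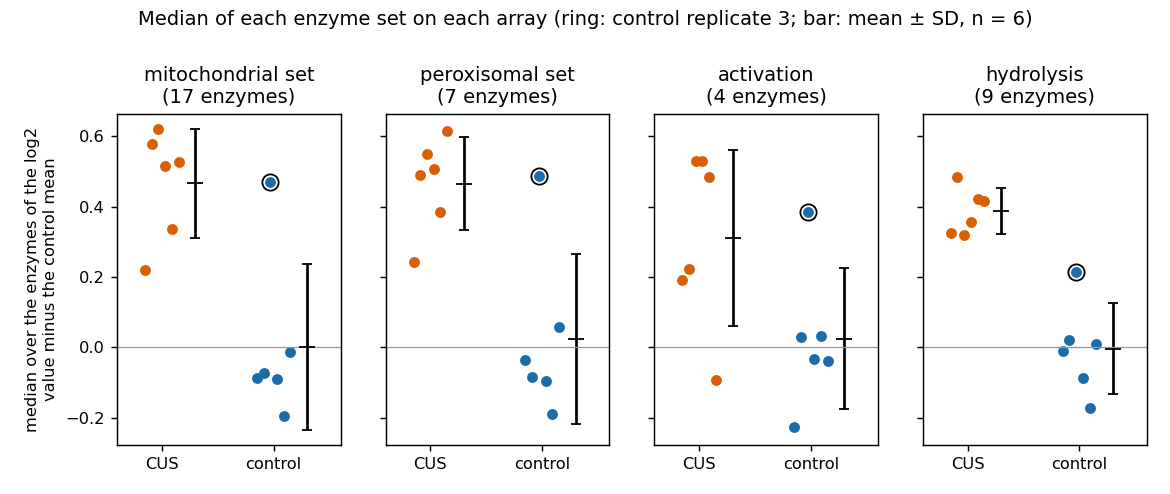
Median over the enzymes of each set of the log2 value relative to the control mean, on each of 6 CUS and 6 control arrays, with the mean ± SD beside the points and control replicate 3 ringed. The hydrolysis median is higher on every CUS array (0.32 to 0.48) than on any control array (-0.17 to 0.21), and in the other sets control replicate 3 lies within the CUS range.

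Of the 5 activating enzymes, 4 were tested, of which 2 rose and none fell, with a median difference of 0.30. Acsl1, the main long-chain synthetase of adipocytes, measured 7.74, 7.99 and 8.16 on CUS arrays and 7.42, 7.55 and 8.16 on control arrays. It overlapped through control replicate 3 and 1 further control array, and its difference of 0.33 ± 0.13 was at the threshold (limma, adjusted p = 0.0483) and did not pass under 12 of 25 alternatives. Acsl3, a synthetase of the endoplasmic reticulum and of lipid droplets, rose by 0.45 ± 0.12 (adjusted p = 0.00807). Acsl4, which prefers arachidonate, differed by 0.27 ± 0.24. Acsl5, found on mitochondria and the endoplasmic reticulum, differed by -0.23 ± 0.09 and just missed the threshold (adjusted p = 0.0524). It passed as lower under 10 of 25 alternatives, with -0.29 without control replicate 3 (adjusted p = 0.00587), and differed by 0.60 under scaling on the spike-in RNAs (adjusted p = 0.0393). Acsl1 exceeded Acsl5 by 0.56 (exact permutation test, two-sided, p = 0.030; 0.036 adjusted over the 6 comparisons), and by 0.72 without control replicate 3 (exact p = 0.0087).

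Of the 10 thioesterases, 9 were tested, of which 4 rose and none fell, with a median difference of 0.39. Acot2, the mitochondrial long-chain thioesterase, measured 1.47, 1.55 and 1.60 on CUS arrays and 0.95, 1.14 and 1.31 on control arrays. Its CUS arrays spread little, no arrays overlapped, and control replicate 3 was not the highest control array. Acot2 rose by 0.39 ± 0.08 (limma, adjusted p = 0.00148) at the brighter probe and by 1.20 ± 0.19 at the other (adjusted p = 0.00036), which was well above background on 4 control arrays. Acot1, the cytosolic long-chain thioesterase, measured -3.19, -2.78 and -2.35 on CUS arrays and -3.65, -3.23 and -2.36 on control arrays, and its difference of 0.44 ± 0.21 did not pass (adjusted p = 0.0961). The differences of Acot2 and Acot1 were 0.05 apart (exact permutation test, two-sided, p = 0.84).

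Acot5, a peroxisomal thioesterase in mice, measured -3.42, -3.03 and -2.71 on CUS arrays and -4.29, -3.93 and -3.46 on control arrays. It rose by 0.87 ± 0.15 without overlap (limma, adjusted p = 0.000544), but differed by -0.01 under normexp background correction (adjusted p = 0.905). Acot13, a thioesterase attached to mitochondria, measured 1.12, 1.33 and 1.50 on CUS arrays and 0.47, 0.65 and 1.32 on control arrays, and rose by 0.60 ± 0.14 (adjusted p = 0.0041). Acot9, also mitochondrial, rose by 0.47 ± 0.10, while Acot3, Acot7 and Acot8 differed by 0.31, 0.14 and 0.12 and did not pass.

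Acot4, a peroxisomal thioesterase in mice, gave opposite signs at its probes. The brighter probe measured -3.57, -3.23 and -3.04 on CUS arrays and -3.32, -2.92 and -2.46 on control arrays, a difference of -0.34 ± 0.15 that did not pass (limma, adjusted p = 0.0667). The other was well above background on all 6 CUS arrays and on no control array, and was at least 3.74-fold higher in CUS (adjusted p = 0.000138), as the CUS mean over the lowest signal well above background, or the probe's own where higher, on each control array. That bound was taken under the main background treatment only. Acot1 to Acot5 lie within 1 stretch of chromosome 6 and are closely related copies, so a probe may also read a neighbour.

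The order of activation and hydrolysis depended on the setting. The median difference of the activating enzymes minus that of the thioesterases was -0.09, and it turned to 0.10 under normexp background correction, to 0.02 with array weights, to 0.03 without CUS replicate 6 and to 0.02 without control replicate 3. On single arrays the activation median was -0.09 to 0.53 in CUS and -0.23 to 0.39 in control. The hydrolysis median was 0.32 to 0.48 on the CUS arrays and -0.17 to 0.21 on the control arrays, with no overlap.

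Of 6 related enzymes with other or less settled substrates, 3 rose and 1 fell. Acad11, an acyl-CoA dehydrogenase of long chains, measured 3.26, 3.59 and 3.87 on CUS arrays and 2.51, 2.83 and 3.78 on control arrays, and rose by 0.67 ± 0.20 (limma, adjusted p = 0.013). Echdc3, a hydratase-like protein, measured 2.40, 2.80 and 2.99 on CUS arrays and 1.70, 2.07 and 2.79 on control arrays, and rose by 0.61 ± 0.17 (adjusted p = 0.00989). Echdc2, of the same family, measured 2.69, 3.15 and 3.41 on CUS arrays and 2.27, 2.51 and 3.24 on control arrays, and rose by 0.56 ± 0.17 (adjusted p = 0.0163). For all 3, control replicate 3 was the only control array within the CUS range.

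Acoxl, an oxidase-like protein, showed the largest fall. It measured -5.50, -4.56 and -4.07 on CUS arrays and -4.29, -2.99 and -1.74 on control arrays, with 1 control array inside the CUS range. The difference was -1.69 ± 0.39 (limma, adjusted p = 0.00387), a level 3.22-fold higher in controls, and under scaling on the spike-in RNAs it was -0.86 and did not pass (adjusted p = 0.0504). Echdc1, which repairs ethylmalonyl-CoA, and Acadsb, a dehydrogenase of short and branched chains, differed by 0.12 and 0.15 and did not pass.

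**Figure D4:**
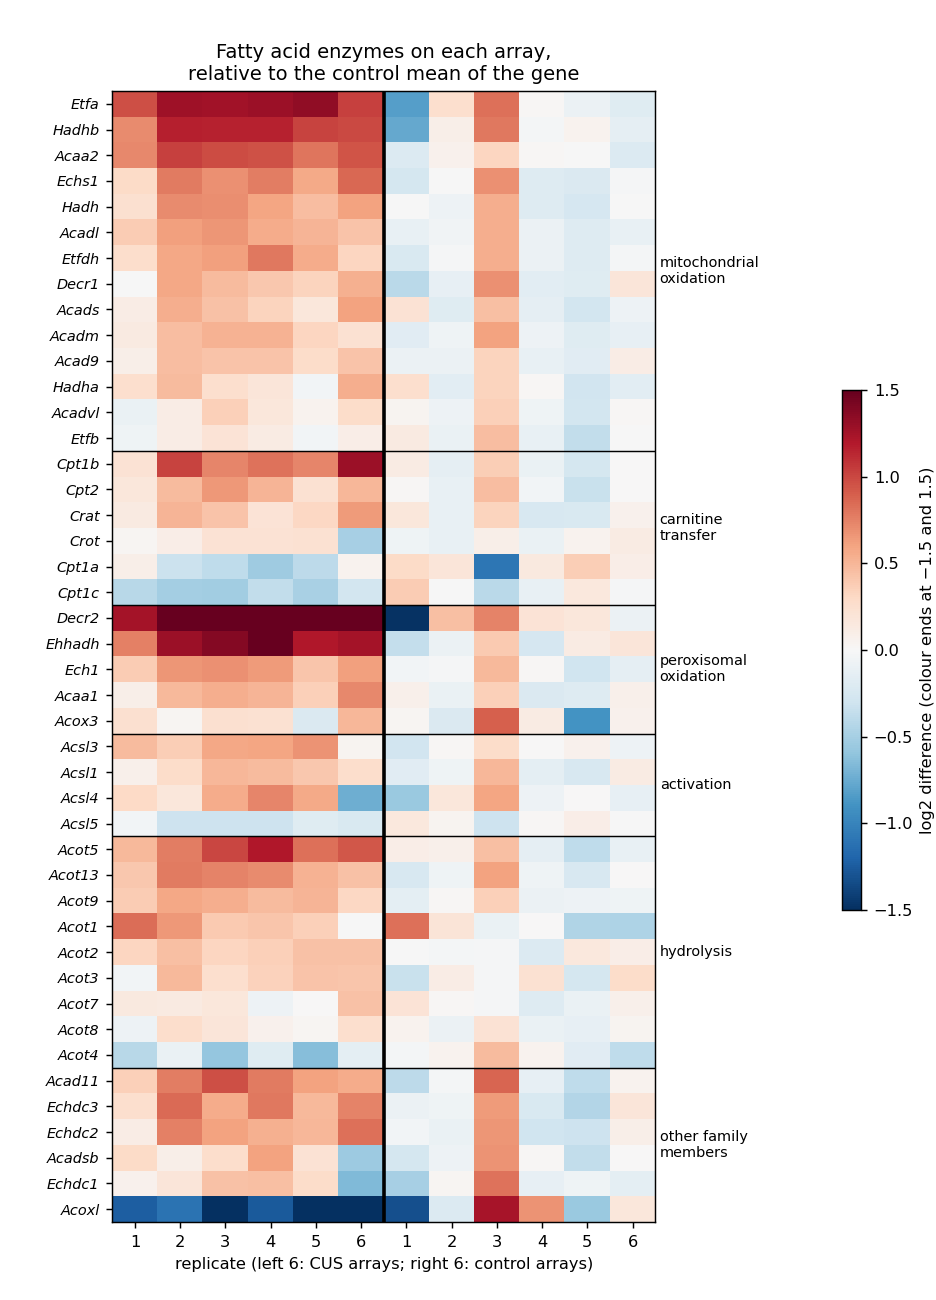
Log2 value of 44 of the 45 enzymes tested on each CUS array (left 6 columns) and control array (right 6 columns), as the difference from the control mean of the gene, with the colour scale ending at -1.5 and 1.5. The column of control replicate 3 is red for most enzymes, as the CUS columns are, and CUS replicate 1 is the palest CUS column.

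Control replicate 3 was the highest control array for 37 of the 45 enzymes, and for 21 of the 27 that rose it lay above the lowest CUS array. The SD was larger in controls than in CUS for 37 of the 45. CUS replicate 1 was the lowest CUS array for 29 of the 45. Without control replicate 3, 29 enzymes rose and 4 fell, against 29.1% and 30.5% of all genes, and 22 had every CUS array above every remaining control array, against 19.6% of all genes. The 4 that fell were Acoxl, Cpt1c, Cpt1a and Acsl5.

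Markers of other cell types also differed between the groups, and their part in these results was not tested. Of all genes tested, 24.2% rose and 25.9% fell. All 6 red blood cell genes rose, with summed levels of 1720 to 2346 on the CUS arrays and 49.98 to 142.5 on the control arrays. Of 7 mast cell genes 6 rose, with sums of 2.16 to 5.60 in CUS and 0.33 to 0.52 in control, and of 5 mesothelial genes 4 rose, with sums of 7.98 to 12.6 in CUS and 1.86 to 10.4 in control. Of 8 endothelial genes 5 fell, and of 6 smooth muscle genes 5 fell, with sums of 4.58 to 12.2 in CUS and 4.91 to 44.6 in control. Of 8 macrophage genes 2 rose, close to the share of all genes, and none fell, with sums of 29.7 to 77.8 in CUS and 11.2 to 43.2 in control. Of these 2, Csf1r rose by 1.25 at its brighter probe and fell by 1.25 at the other. Of 7 fibroblast and preadipocyte genes tested 4 fell and 1 rose, with sums of 36.7 to 61.3 in CUS and 51.8 to 126.0 in control. Of 4 skeletal muscle genes tested 2 fell, with sums of 1.06 to 1.28 in CUS and 1.42 to 1.85 in control. Both liver genes tested rose, with sums of 3.11 to 5.26 in CUS and 1.68 to 5.07 in control, and of 3 T and NK cell genes tested 1 rose. Of 10 adipocyte genes 3 rose and 4 fell. Brown adipocytes oxidise fatty acids at a high rate, and of their 6 markers Dio2 and Cox8b were well above background on no array. Ucp1, the uncoupling protein that defines these cells, was above it on 2 CUS arrays and on no control array, and did not pass the filter. Its signal was higher on every CUS array than on any control array. Most of these values were not above background, so no fold is given. Elovl3 was above background on 1 CUS array and on no control array, and its groups overlapped. Ppargc1a was above background on 1 control array and on no CUS array. Its signal was lower on every CUS array than on any control array. The same order held for Acot12 and Acox2, which were above background on no array, so it is not read as a difference. Cidea alone passed the filter. It measured 5.75, 6.12 and 6.31 on CUS arrays and 5.12, 5.20 and 6.32 on control arrays, with 5 control arrays below every CUS array, and rose by 0.64 ± 0.20 (limma, adjusted p = 0.016). Without control replicate 3, the Cidea difference was 0.82 (adjusted p = 0.000224), and at its second probe it was 1.30 (adjusted p = 0.00061).

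Genes that work beside these enzymes were read from 8 lists. Of 90 tested, 51 rose and 6 fell, with a median difference of 0.46. Of all genes tested, 24.2% rose and 25.9% fell, with a median of -0.03. Of 6 genes of carnitine supply 3 rose and none fell, among them Slc25a20, the carrier that exchanges acylcarnitine for carnitine, by 0.54 ± 0.13 (limma, adjusted p = 0.00447). Of 17 other mitochondrial genes 10 rose and 1 fell. Eci1, the isomerase that lets unsaturated chains enter the spiral, rose by 1.15 ± 0.20 (adjusted p = 0.000616). Acat1, the acetoacetyl-CoA thiolase, rose by 1.05 ± 0.16.

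The peroxisome itself was represented by 17 assembly genes, of which 12 rose and none fell, with a median difference of 0.50. Pex7, the import receptor that brings in the thiolase, rose by 1.13 ± 0.21 (limma, adjusted p = 0.0011), and Pex2, a subunit of the ubiquitin ligase of the import machinery, by 0.84 ± 0.12. Of 15 other peroxisomal enzymes 8 rose and 2 fell. Cat, the catalase that removes the hydrogen peroxide of the oxidases, measured 1.14, 1.78 and 2.05 on CUS arrays and -0.25, 0.23 and 1.35 on control arrays, and rose by 1.35 ± 0.24 (adjusted p = 0.000655).

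Of 8 genes in the list of other hydrolysis, 5 were tested and all 5 rose. They include Mcat, which acts in fatty acid synthesis and is counted again below among the malonyl-CoA genes. Another is Fasn, the fatty acid synthase, whose own thioesterase releases the finished chain. Fasn measured 3.90, 4.48 and 4.95 on CUS arrays and 2.64, 3.12 and 3.99 on control arrays, and rose by 1.23 ± 0.23 (limma, adjusted p = 0.00104). Of 4 genes that make, degrade or use malonyl-CoA, the inhibitor of the Cpt1 enzymes, 3 rose and none fell. Mlycd, which degrades it, rose by 0.72 ± 0.14. Acacb makes malonyl-CoA at the mitochondrial surface, and Mcat uses it in mitochondrial fatty acid synthesis. Both were well above background on all 6 CUS arrays and on no control array, so their control levels are uncertain. Acacb rose by 0.76 ± 0.24 (limma, adjusted p = 0.0184), but the groups overlapped and only 1 CUS array was above every control array. Mcat was at least 2.43-fold higher in CUS (limma, adjusted p = 1.9e-05). That bound was taken under the main background treatment only, on which dim probes such as those of Decr2 and Acot5 depended. Of 11 other genes of activation and binding 4 rose and 1 fell. Slc27a3, an acyl-CoA synthetase of the fatty acid transport protein family, rose by 1.18 ± 0.18 (adjusted p = 0.000273) and Acsbg1, a synthetase best known from brain, fell by 0.59 ± 0.11 (adjusted p = 0.000873), each without overlap.

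The array names 3 further family members by older names, so that the choice by name missed them. Acad10, a dehydrogenase, rose by 0.74 ± 0.16, Acaa1b, a peroxisomal thiolase, by 0.62 ± 0.12, and Acad8, the isobutyryl-CoA dehydrogenase of valine breakdown, by 0.45 ± 0.09 (limma, adjusted p = 0.00292, 0.00109 and 0.00191). With these, 30 of 48 enzymes tested rose and 2 fell.

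Peroxisome proliferator-activated receptors bind a direct repeat of 2 AGGTCA half-sites with 1 base between them, and many of these enzymes are known targets, so the promoters were searched for it. RefSeq windows of the 250 bases before the start site (GRCr8) were matched for 41 of the 48 enzymes, 22 of which were among those that rose. This 13-base motif, with N as the base between the half-sites and at most 1 mismatch, was searched on both strands and was present in 0.368% of all 33469 windows and in 4 enzymes, Acadvl, Acot4, Acot8 and Acot12. At their brightest probes Acadvl, Acot4 and Acot8 did not pass the test, and Acot12 was well above background on no array. TCAAGGTCA, an element of the estrogen-related receptors that shares 1 half-site with it, was in 0.388% of all windows and in none of the 41. The 3 windows of expressed enzymes are shown with the match in capitals, at chr10:55236706-55236955 (minus strand) for Acadvl, chr3:173962189-173962438 (minus strand) for Acot8 and chr6:109399604-109399853 (plus strand) for Acot4.
Acadvl: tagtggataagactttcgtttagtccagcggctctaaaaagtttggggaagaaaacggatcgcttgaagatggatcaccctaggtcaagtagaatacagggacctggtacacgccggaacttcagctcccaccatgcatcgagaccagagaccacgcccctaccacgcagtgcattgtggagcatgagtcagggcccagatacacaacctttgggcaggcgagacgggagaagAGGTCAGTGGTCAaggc
Acot8: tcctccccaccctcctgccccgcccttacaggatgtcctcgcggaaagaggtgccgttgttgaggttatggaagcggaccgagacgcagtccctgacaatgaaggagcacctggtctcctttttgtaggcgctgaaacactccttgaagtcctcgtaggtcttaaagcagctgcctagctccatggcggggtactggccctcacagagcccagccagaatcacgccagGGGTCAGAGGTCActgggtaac
Acot4: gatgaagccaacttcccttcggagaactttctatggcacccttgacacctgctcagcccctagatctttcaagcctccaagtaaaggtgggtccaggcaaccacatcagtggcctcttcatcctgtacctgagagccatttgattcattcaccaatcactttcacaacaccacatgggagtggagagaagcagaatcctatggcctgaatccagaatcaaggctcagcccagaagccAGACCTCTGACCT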

How the data were processed

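The 12 arrays were grouped by their labels. The authors deposited spot intensities from Agilent Feature Extraction (10.7.3.1), already background-subtracted and detrended per the file headers, with no scaling between arrays. Their quantile normalized table (linear intensities) served as an alternative. The arrays are gene expression arrays, while the paper speaks of exon arrays. Outlier spots were dropped, replicate spots averaged, and log2 values taken relative to the 75th percentile of each array. Probes above background on 6 or more of 12 arrays (19729 probes, 17393 genes) were compared with limma 3.58.1 (R 4.3.3), two-sided, with no covariate, since slide and group coincide, and with Benjamini-Hochberg adjustment. Intervals are 95% intervals of that fit. A gene was read from its brightest tested probe. Exact permutation tests were two-sided (SciPy 1.17.1). The number of arrays limits the precision.

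Probes were named by RefSeq (17514 by accession, 2669 by symbol, 689 by synonym, 216 by another accession), and 9279 kept the name in the file. Probe positions are those of the design on rn4. The enzymes, classes and lists were chosen with earlier results of these data known. Some values, among them those of 1 enzyme that is counted here, are not reported here. Values by array are given for those that passed with a difference of at least 0.5 and for Cpt1a, Cpt1b, Cpt2, Acadm, Acadl, Acadvl, Ehhadh, Acsl1, Acot1 and Acot2. From each list, up to 4 genes with the smallest adjusted p were eligible for naming. Values by array of Etfb, Hadha, Acot4 and of the second probes were added after they were seen. The fit was tested on simulated data. Alternatives covered normalization, background correction, filter, choice of probe, variance model, test, blocking and leaving out arrays. Positions of probes on transcripts, protein levels and metabolic fluxes were not analysed here.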

Additional observations from a re-analysis of the deposited data

Results flagged for a closer look

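Of 88 groups of 6 values (44 enzymes in CUS and in control), 13 had an array farther from the nearest other, relative to the range, than Dixon's 95% critical value allows. Chance alone gives about 1 in 20 for a single group. The enzymes were read on the same 12 arrays, so the groups are not independent and 1 deviant array can give many flags. In 10 of the 13 the array was control replicate 3. It was the highest control array for Acad11 (3.78), Acadl (5.26), Acadm (4.09), Acot13 (1.32), Acot9 (3.05), Echs1 (5.75), Etfdh (1.20) and Hadh (6.12). It was the lowest for Acsl5 (1.09) and Cpt1a (-1.99). All values are log2 intensities relative to the array 75th percentile. The same array had the highest adipocyte marker sum (2898) and the lowest red blood cell sum (49.98) of the 12, and the part of this in the values above was not tested.

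The other 3 lay on other arrays. CUS replicate 6 was the lowest CUS array for Crot (1.34) and Echdc1 (1.27), and control replicate 1 was the lowest control array for Decr2 (-6.37).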

How the results depend on the processing

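Of the 27 enzymes that rose, 19 passed under every alternative tried and 22 passed whichever single array was left out, and those lost without some array included Acadm, Acads, Acsl1 and Crat. Across arrays left out, 22 to 29 enzymes rose and 2 to 4 fell, with 4 falling only without control replicate 3. Scaling on the spike-in RNAs gave 41 higher and 0 lower, and medians of 1.25 (mitochondrial set), 1.28 (peroxisomal set), 1.13 (activation) and 1.22 (hydrolysis), beside a median of 0.80 for all genes. Under it Acsl5 turned to 0.60 and Cpt1c to 0.40, and Cpt1c also lost its call under quantile normalization and in the authors' table. Normexp background correction gave 4 lower, a hydrolysis median of 0.19, -0.015 for Acot5 and -0.49 for Acox3, beside a median of -0.16 for all genes. The count of enzymes that fell was also 4 with the percentile taken over probes well above background on all arrays and with no filter on dim probes, and 5 with array weights. The mitochondrial minus the peroxisomal median, -0.03, was -0.10 in the authors' table, -0.087 with the older names included (chosen after seeing the data), 0.13 for the mean of the probes and 0.16 for the dimmest probe. Acot4 was 0.90 for the mean of its probes and 2.14 for the dimmest. The dimmest was well above background on no control array, so both values rest on an uncertain control level. Under the main background treatment its level was at least 3.74-fold higher in CUS. With no filter the median of all genes was -0.34. The t-test of the methods called 4 enzymes higher and 1 lower at a 2-fold difference, unadjusted and after Benjamini-Hochberg adjustment, and 23 higher and 3 lower by the adjusted p alone. Apart from the effects of fewer arrays or other probes, the cause of these shifts was not tested.

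The replicate numbers were not treated as pairs in the main fit. Same-numbered arrays correlated at -0.19 to 0.43, with 4 of 6 above 0.1, and 1 of 6 numbers was the best match in both directions. So few arrays cannot decide whether the rats were paired. With the replicate number as a block, 29 enzymes rose and 3 fell. Precision was limited by 6 arrays per group and, for dim probes such as those of Decr2, Acot5 and Acox3, by the signal over background.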

Other observations

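Of 16 regulators of fatty acid oxidation and lipid storage tested, 7 rose and 2 fell, with a median difference of 0.01. Of all genes tested, 24.2% rose and 25.9% fell, with a median of -0.03. Pparg, the nuclear receptor of adipocyte differentiation and lipid storage, measured 5.40, 5.69 and 5.81 (lowest, median and highest) on CUS arrays and 4.92, 5.08 and 5.52 on control arrays, and rose by 0.51 ± 0.11 (SE, limma, adjusted p = 0.00246). Sirt3, a deacetylase of mitochondrial enzymes, rose by 0.46 ± 0.12 (adjusted p = 0.0071). Sirt1, a nuclear deacetylase, measured -3.78, -3.73 and -3.23 on CUS arrays and -2.64, -2.19 and -1.84 on control arrays, with no overlap, and fell by 1.43 ± 0.14 (adjusted p = 1.36e-05). Ppara, the receptor best known for inducing these enzymes in liver, and Ppargc1a, a coactivator of mitochondrial genes, did not pass the filter and were not tested.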
